A study of Mus musculus with 74 samples.

Results

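Gm14410, Gm4631 and Gm14399 are 3 mouse KRAB zinc finger proteins (KRAB-ZFPs) whose genes lie in the gene cluster on chromosome 2 (Chr2-cl), and whose binding sites were mapped by ChIP-seq in 2 different cell lines. Their peaks were taken as all rows of the deposited peak table that carry one of the 3 names: 142 peaks of Gm14410, 371 of Gm4631 and 322 of Gm14399, together 835 of 53255 peaks. In gencode vM1 on mm9 the genes span chr2:176968158-176991126 for Gm14410, chr2:175147456-175163698 for Gm4631 and chr2:174954994-174967513 for Gm14399, all on the minus strand. The 3 proteins were chosen by the overlap of their peaks across the cell lines, so the sharing itself is described below and not tested.

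The series measured 67 KRAB-ZFPs with matched labels, each in 1 ChIP-seq sample; replicate error could therefore not be estimated for any value. Gm14410 was expressed in F9 EC cells, a mouse embryonal carcinoma line, and precipitated with the HA antibody ab9110. Its peaks were called against Gm14296_control with a p threshold of 1e-10 and an enrichment threshold of 10. By its labels this control is not an input but an F9 sample with a C-terminal 3XHA tag, precipitated with ab9110. Its effect on the peaks called was not tested. Gm4631 and Gm14399 were expressed in B6 ES cells, embryonic stem cells of the B6 strain, and precipitated with the HA antibody clone 16B12. The labels of both name the same input, TI_399_Input, with a p threshold of 1e-05 and no enrichment threshold. The input sample that is listed has the title TI_339_Input, and whether it is the same library is not known. All 3 proteins carried a C-terminal 3XHA tag and were expressed from stably integrated vectors in pooled, puromycin-resistant clones. The data therefore describe introduced, tagged protein, and its level against that of the natural protein is not known here. The cell line, antibody, ChIP protocol, aligner, control and thresholds changed together between Gm14410 and the other two, and their parts in any difference cannot be told apart. The sequencing depth of the libraries is unknown here, so a missing peak does not show absent binding.

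KRAB-ZFPs bind DNA through a row of zinc fingers, each of which contacts a few neighbouring bases, and recruit the co-repressor KAP1 through the KRAB domain. KAP1 in turn brings enzymes that place the heterochromatin mark H3K9me3. Many KRAB-ZFPs of mouse bind retrotransposons, which fill the genome with near-identical copies, and Chr2-cl holds many KRAB-ZFPs that have arisen by recent gene duplication. Among the retrotransposons of mouse, intracisternal A-particles (IAPs) are endogenous retroviruses with a long terminal repeat (LTR) at each end.

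A word of 24 bases was held by most of the loci that the 3 proteins shared, and it was repeated in tandem. It was found as the word present in the most loci on odd-numbered chromosomes (124 of 340 loci), and on all other chromosomes it was present in 158 of 407 loci (38.8%, 95% Wilson interval 34.2 to 43.6; intervals here and below cover counting error only). The word and 4 genomic stretches that hold it are given 5′ to 3′ with the copies of the word in capitals, in order to show which copies each protein was called at. The 4 stretches are mm9 sequence from chr17:29074898-29075082 (plus strand, called in all 3 proteins), chr16:9069748-9069932 (minus strand, Gm14410 and Gm4631), chr2:150023332-150023516 (minus strand, Gm14399 only) and chr1:19612937-19613120 (plus strand, none of the 3).
Word: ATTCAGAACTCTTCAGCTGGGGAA
All 3 proteins: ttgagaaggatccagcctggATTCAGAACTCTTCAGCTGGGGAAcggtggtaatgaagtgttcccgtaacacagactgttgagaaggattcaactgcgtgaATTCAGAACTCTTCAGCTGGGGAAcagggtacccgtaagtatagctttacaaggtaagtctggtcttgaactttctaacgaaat
Gm14410 and Gm4631: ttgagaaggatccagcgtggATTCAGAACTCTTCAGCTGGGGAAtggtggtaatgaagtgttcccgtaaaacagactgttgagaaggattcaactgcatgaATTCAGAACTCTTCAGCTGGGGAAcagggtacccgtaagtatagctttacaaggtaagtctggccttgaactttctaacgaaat
Gm14399 only: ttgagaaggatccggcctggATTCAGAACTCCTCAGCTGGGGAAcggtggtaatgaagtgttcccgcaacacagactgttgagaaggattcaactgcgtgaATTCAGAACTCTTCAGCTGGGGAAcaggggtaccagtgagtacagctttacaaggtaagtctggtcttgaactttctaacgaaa
None of the 3: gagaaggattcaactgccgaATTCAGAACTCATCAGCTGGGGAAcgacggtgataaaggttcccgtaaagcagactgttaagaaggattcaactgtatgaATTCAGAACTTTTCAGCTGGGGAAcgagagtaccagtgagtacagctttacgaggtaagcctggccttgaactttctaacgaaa

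Positions in the word are counted from 1 at its 5′ end, and a substitution gives the base of the word, its position and the base of the copy. Both copies at the loci called in all 3 proteins and in Gm14410 and Gm4631 matched the word exactly. At the Gm14399 locus the first copy held T12C and the second was exact, and at the locus called in none the copies held T12A and C11T. These are single examples. Most of the 318 arrays of 2 exact copies described below were not called either: 47 were called in Gm14410, 73 in Gm4631 and 34 in Gm14399. The mm9 genome held 5946 copies with up to 3 mismatches, of which 2533 were exact. Copies on the same strand with starts up to 250 bp apart were joined into 4176 arrays, of which 2757 had 1 unit, 1126 had 2, 259 had 3 and 34 had 4 or more. Of the 1770 spacings within arrays, 1761 lay between 77 and 82 bp, and 81 bp was the most common with 944.

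The 835 peaks formed 747 loci when 200 bp windows around the summits were joined at an overlap of 25% or more. For 2 neighbouring windows this is the same as summits up to 150 bp apart. Windows were chained, so the outer summits of a locus called in all 3 proteins can lie further apart. Of the 747 loci, 54 were shared between the cell lines: 35 by Gm14410 and Gm4631, 11 by Gm14410 and Gm14399, and 8 by all 3. One protein only was called at 88 loci of Gm14410, 302 of Gm4631 and 277 of Gm14399, and the remaining 26 loci were called in Gm4631 and Gm14399, which share their input. Just outside the rule, with summits 151 to 300 bp apart, lay 1 further peak of Gm14410 beside Gm4631 and 2 beside Gm14399, and none lay 301 to 1000 bp away.

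Gm14410 shared 43 of its 142 peaks with Gm4631 (30.3% of Gm14410 and 11.6% of Gm4631), against a background of 0.0160% of the 43747 peaks of the other F9 KRAB-ZFPs that were called in Gm4631. With Gm14399 it shared 19 peaks (13.4% of Gm14410 and 5.90% of Gm14399), and the background was 0.00686% of the same peaks. In the other direction, 0.759% of the 8429 peaks of the other ES KRAB-ZFPs were called in Gm14410. All of these 64 peaks belonged to Gm14419, a further Chr2-cl protein assayed in ES cells, which overlapped 64 peaks of Gm14410 (45.1% of Gm14410 and 1.64% of the 3906 peaks of Gm14419). Gm14410 shared no peak with 57 of the 64 KRAB-ZFPs outside the 3 proteins and 5 or more with Gm14419 alone. Its counts with Gm13152, Gm13247 and Gm14418 in F9 cells, the next in order, were 2 peaks each.

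Of the 54 loci shared between the cell lines, 52 lay within 150 bp of a copy of the word (96.3%, 87.5 to 99.0), and the other 2 were in low copy sequence. Low copy means a median of fewer than 10 exact genomic copies of the 24-base words of a window. The share near the word was 71.6% of the 88 loci of Gm14410 only (61.4 to 80), 37.7% of the 302 of Gm4631 only (32.5 to 43.3) and 22.4% of the 277 of Gm14399 only (17.9 to 27.6). Low copy sequence held the other 25 loci of Gm14410 only, and 141 of Gm4631 only and 169 of Gm14399 only. Multi-copy sequence away from the word held 47 loci of Gm4631 only and 46 of Gm14399 only, and none of Gm14410. For the 64 other KRAB-ZFPs of the series, 4.72% of 52176 peaks lay within 150 bp of a copy (2464 peaks), and Gm14419 gave 2435 of these.

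**Figure D1:**
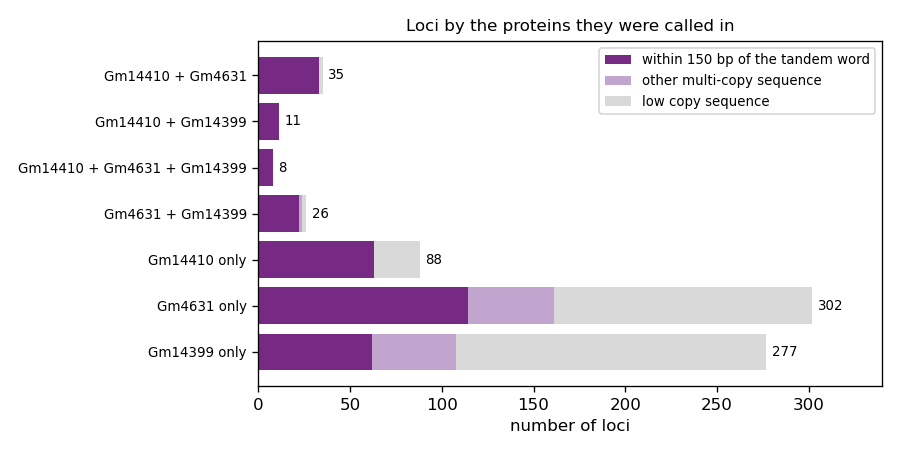
Number of loci (x axis) in each of the 7 classes given by the proteins called there (y axis), coloured by whether the locus lay within 150 bp of a copy of the tandem word, in other multi-copy sequence or in low copy sequence; the number at the end of a bar is the total. Nearly all of the shared loci are in the first colour (52 of 54), while 169 of the 277 loci of Gm14399 only are low copy.

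By protein, 115 of the 142 Gm14410 peaks lay near the word (81%, 73.7 to 86.6), 177 of 371 Gm4631 peaks (47.7%, 42.7 to 52.8) and 103 of 322 Gm14399 peaks (32.0%, 27.1 to 37.3). Among the peaks near the word, 45.2% of those of Gm14410, 23.2% of Gm4631 and 18.4% of Gm14399 were shared between the cell lines. Away from the word these were 2 of 27, 2 of 194 and 0 of 219 peaks.

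The summits of all 3 proteins near the word lay on both sides of the nearest copy, with medians at most 8 bp from its middle. Summit minus middle of the nearest copy, along the strand of the word, had a median of 8 bp for Gm14410 (quartiles -10 and 17.5), 2 bp for Gm4631 (-20 and 23) and -6 bp for Gm14399 (-26.5 and 12). Within 25 bp of the middle lay 71.3%, 58.8% and 60.2% of these summits. The 3 distributions overlapped over most of their range. For Gm14419 the median was -71 bp, with quartiles of -83 and -57, and 5.26% of its 2435 summits near the word were within 25 bp. At the shared loci the summits of Gm14410 and Gm4631 were a median of 35 bp apart (quartiles 22.5 and 75, n = 43 loci), and those of Gm14410 and Gm14399 53 bp (35.5 and 78, n = 19 loci). Units of an array were most often 81 bp apart, so a summit anywhere inside an array lies near a copy. The word was also picked from windows around summits of these same peaks, which favours words close to them. The medians therefore cannot show that the summits centre on the word more than on other parts of the arrays.

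**Figure D2:**
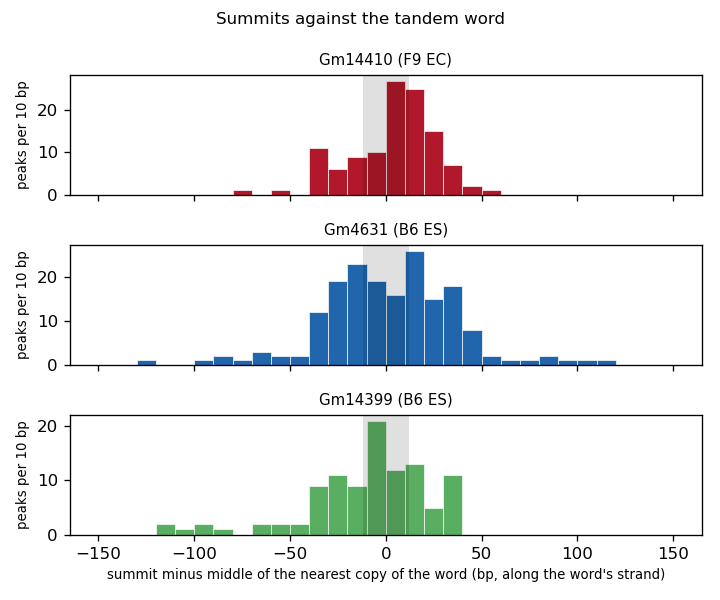
Peaks per 10 bp (y axis) against the distance in bp from the middle of the nearest copy of the word to the summit along the strand of the word (x axis), for Gm14410 (115 peaks), Gm4631 (177) and Gm14399 (103); the grey band is the word. The medians are 8, 2 and -6 bp. The spacing of the units and the choice of the word from these same peaks both favour small distances.

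Few of the arrays were called: 115 of 4176 in Gm14410 (2.75%), 175 in Gm4631 (4.19%) and 102 in Gm14399 (2.44%). An array was counted as called in a protein where any part of a 200 bp window overlapped it, a looser rule than the 25% used for loci. The share was higher in arrays with 2 exact copies than with 1 or none in all 3 proteins, and higher with 3 than with 2 in Gm14410. For Gm14410, 0 of 2277 arrays without an exact copy were called, 19 of 1416 with 1 exact copy (1.34%, 0.861 to 2.09), 54 of 368 with 2 (14.7%, 11.4 to 18.7), 32 of 93 with 3 (34.4%, 25.5 to 44.5) and 10 of 22 with 4 or more (45.5%, 26.9 to 65.3), an interval that overlaps that for 3. For Gm4631 the shares were 0.0878%, 4.10%, 22.6% and 31.2% for 0, 1, 2 and 3 exact copies, and 3 of 22 arrays with 4 or more were called. For Gm14399 they were 0.0878%, 2.75%, 12.2% and 14%, with 3 of 22 for 4 or more, and its intervals from 2 copies on overlap. The word was picked on odd-numbered chromosomes from these same peaks, which favours exact copies. On the chromosomes not used to pick it, the shares for arrays with 1, 2 and 3 exact copies were 2.08%, 17.5% and 48.8% for Gm14410, 4.29%, 23.7% and 41.9% for Gm4631, and 2.86%, 11.3% and 23.3% for Gm14399. Of the 9 arrays with 4 or more there, 4 were called in Gm14410, 1 in Gm4631 and 1 in Gm14399.

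**Figure D3:**
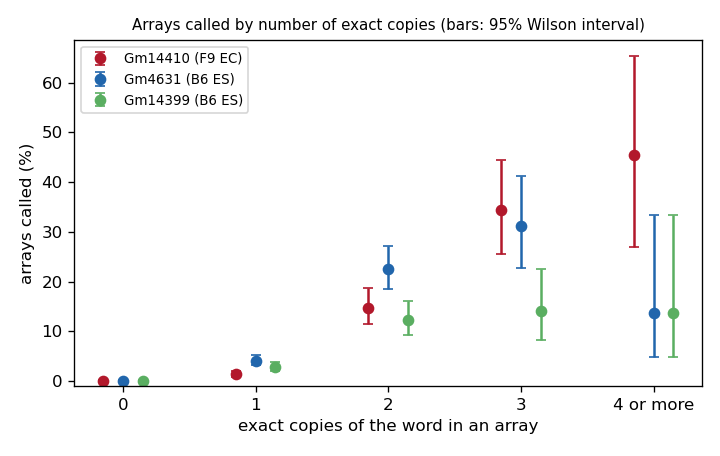
Percent of arrays called (y axis) against the number of exact copies of the word in the array (x axis) for the 3 proteins; bars are 95% Wilson intervals and the groups hold 2277, 1416, 368, 93 and 22 arrays. Gm14410 goes from 0 of 2277 arrays to 10 of 22, while Gm14399 stays at 12.2% to 14% from 2 exact copies on.

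The 3 proteins differed in the variants at their summits, and the 2 ES proteins differed from each other. The copy nearest the summit was exact for 110 of the 115 Gm14410 peaks near the word (95.7%, 90.2 to 98.1) and for 168 of 177 Gm4631 peaks (94.9%, 90.6 to 97.3). For Gm14399 it was exact in 58 of 103 peaks (56.3%, 46.7 to 65.5) and T12C in 44 (42.7%, 33.6 to 52.4). T12C was nearest in 1 Gm14410 peak and 2 Gm4631 peaks, and it makes up 181 of the 5946 copies of the genome (3.04%). In this measure Gm4631 was thus closer to Gm14410 than to Gm14399, and the cause was not tested.

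Over the arrays themselves, Gm4631 lay between the other two proteins where a T12C copy was present. Of the 318 arrays of 2 exact copies, 47 were called in Gm14410 (14.8%, 11.3 to 19.1), 73 in Gm4631 (23%, 18.7 to 27.9) and 34 in Gm14399 (10.7%, 7.75 to 14.6). Of the 113 arrays of 1 exact and 1 T12C copy, 2 were called in Gm14410 (1.77%, 0.487 to 6.22), 16 in Gm4631 (14.2%, 8.91 to 21.8) and 32 in Gm14399 (28.3%, 20.8 to 37.2). Gm14410 and Gm14399 thus went in opposite directions between the 2 kinds of array, with intervals that do not overlap within either protein, while those of Gm4631 overlap. Arrays of 1 exact and 1 G20A copy (163 in the genome) were called 3 times in Gm14410, 2 times in Gm4631 and 1 time in Gm14399, and single exact copies (1020) 8, 29 and 2 times. On the chromosomes not used to pick the word, the T12C arrays gave 2, 11 and 18 of 57 for Gm14410, Gm4631 and Gm14399, and the arrays of 2 exact copies 30, 40 and 17 of 170.

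**Figure D4:**
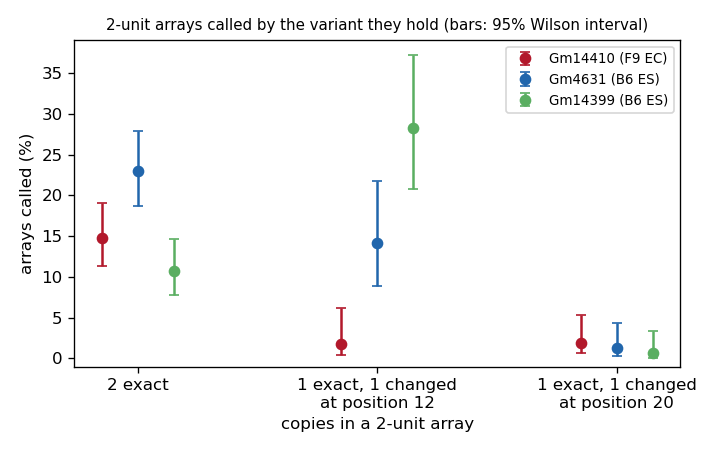
Percent of 2-unit arrays called (y axis) in each of the 3 proteins, for arrays of 2 exact copies (318), of 1 exact copy and 1 with T12C (113) and of 1 exact copy and 1 with G20A (163); bars are 95% Wilson intervals. Gm14399 is at 10.7% for the first kind and 28.3% for the second, and Gm14410 at 14.8% and 1.77%.

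In 1715 arrays no copy was exact and at least 1 held C11T, alone or beside other mismatches, and none of these arrays was called in any of the 3 proteins. Gm14419 was called at 1568 of these arrays (91.4%, 90.0 to 92.7), at 263 of the 318 arrays of 2 exact copies (82.7%) and at 107 of the 113 with T12C (94.7%). The sequence around the word also differs between these kinds of array, as the printed stretches show, so a part of the flanks in the calls cannot be told apart from that of the named base. The rare variant A15T had 4 copies in the genome, each in an array of 1 further, exact copy. Gm14410 was called at 3 of these 4 arrays, Gm4631 at 2 and Gm14399 at none, and Gm14419 was called at all 4. The array on chromosome 1 was a locus shared by Gm14410 and Gm4631.

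The classes of locus rest on the same calls as the shares of arrays above, so their variants are no separate result. Among the loci near the word, all units were exact in 46 of the 52 shared between the cell lines (88.5%, 77 to 94.6), in 46 of 63 of Gm14410 only, in 84 of 114 of Gm4631 only and in 20 of 62 of Gm14399 only (32.3%, 22.0 to 44.6). A T12C copy was present in 3 of the 52 shared loci (5.77%, 1.98 to 15.6) and in 40 of the 62 of Gm14399 only (64.5%, 52.1 to 75.3). The shared loci and those of Gm14410 only had overlapping shares of arrays with 2 or more exact copies, 44 of 52 and 52 of 63 (84.6%, 72.5 to 92.0, and 82.5%, 71.4 to 90.0). By the study's methods, a read that matched many places equally well was assigned to a single one pseudo-randomly, and the part of this in which of the near-identical arrays were called was not tested.

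Part of the arrays lay just downstream of an IAP LTR. The study used an oligo of the LTR subfamily IAPLTR1_Mm as a reporter target, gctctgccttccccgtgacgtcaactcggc, and mm9 held 3182 copies of it with up to 1 mismatch. A copy on the same strand within 1 kb upstream was found for 1287 of the 4176 arrays (30.8%). This share was 14.8% of the arrays called in Gm14410 (17 of 115), 19.4% of those called in Gm4631 (34 of 175) and 30.4% of those called in Gm14399 (31 of 102), against 18.6% of all arrays with 2 or more exact copies, 30.8% of the arrays with T12C beside exact copies and 59.4% of the arrays with C11T and no exact copy. The median distance from tag to array was 462.0, 457.5 and 464.0 bp for the 3 proteins. Within 10 kb of a tag lay 13.4% of all Gm14410 summits, 12.4% of Gm4631 and 11.5% of Gm14399, near the 9.56% of the summits of the other KRAB-ZFPs. No repeat annotation was used here, so the remaining arrays are not assigned to a subfamily.

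Peak strength was compared within a protein only, since the controls and thresholds differ. The score is 10 times the negative log10 of the p-value, and the fold is the enrichment over the local background. For Gm14410, the median fold was 19.2 at the loci shared between the cell lines (quartiles 15.8 and 21.3, n = 54) and 19.1 at the loci of Gm14410 only (16.0 and 24.6, n = 88). For Gm4631 it was 11.3 at the shared loci (9.74 and 13.7, n = 43) and 9.52 at the loci of Gm4631 only (8.44 and 11.1, n = 302), with median tag counts of 18 and 11. For Gm14399 it was 19.6 at the shared loci (12.8 and 23.4, n = 19) and 10.3 at the loci of Gm14399 only (9.32 and 12.1, n = 277), with median tag counts of 19.0 and 10. Over all loci, the quartile ranges thus overlapped for Gm14410 and Gm4631 and did not for Gm14399. Most loci of Gm14399 only were low copy (169 of 277), while all its shared loci lay near the word. Near the word alone, the ranges overlapped in each protein. There the shared and single-protein median folds were 19.56 (12.76 and 23.43, n = 19) and 11.21 (9.795 and 13.45, n = 62) for Gm14399. They were 19.18 (n = 52) and 17.05 (n = 63) for Gm14410, and 11.31 (n = 41) and 10.68 (n = 114) for Gm4631.

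Ranked by score, the highest-scoring 93 of the 371 Gm4631 peaks included 82 near the word (88.2%, 80.1 to 93.3) and 27 shared between the cell lines, and the lowest 92 peaks 20 (21.7%, 14.5 to 31.2) and 2 shared. For Gm14399 the highest 81 peaks included 64 near the word (79.0%, 68.9 to 86.5) and 14 shared, and the lowest 80 peaks 6 (7.5%, 3.48 to 15.4) and none shared. The share near the word fell with the score in both ES proteins. In Gm14410 it was lowest in the highest-scoring 36 peaks, at 18 (50%, 34.5 to 65.5), against 91.7%, 91.4% and 91.4% in the 3 following score groups of 36, 35 and 35 peaks, and the shared peaks were spread evenly (14, 15, 12 and 13).

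**Figure D5:**
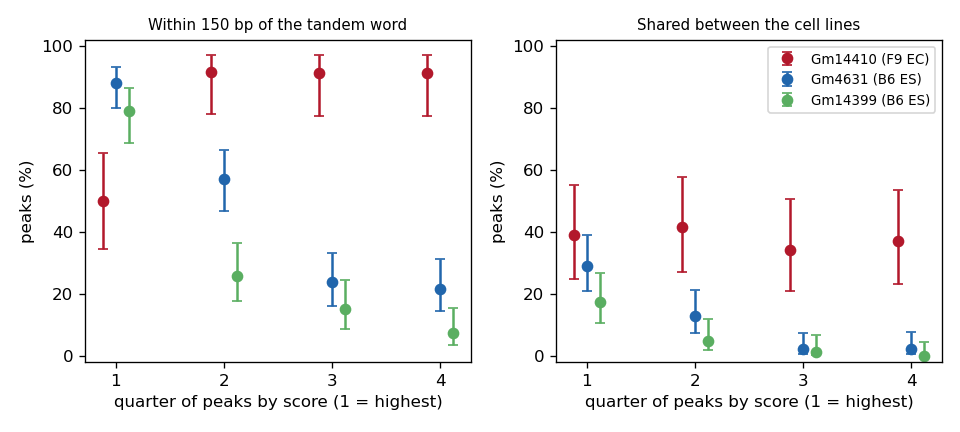
Percent of peaks within 150 bp of the tandem word (left) and percent shared between the cell lines (right) against 4 equal groups of peaks by score within each protein, where 1 is the highest; bars are 95% Wilson intervals. The ES proteins fall from 88.2% and 79.0% near the word to 21.7% and 7.5%, while Gm14410 is lowest in its first group at 50%.

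The number of ES loci in each class depended on the threshold. The scores reached down to 100 in Gm14410, with a lowest fold of 11.02, and to 50.01 in Gm4631 and 50.03 in Gm14399. Only 17 Gm4631 peaks (4.58%) and 24 Gm14399 peaks (7.45%) also passed the p threshold of 1e-10 that Gm14410 was held to. Of these, 16 of 17 and 23 of 24 lay near the word, and 9 of 17 (52.9%, 31.0 to 73.8) and 12 of 24 (50%, 31.4 to 68.6) were shared with Gm14410. With that threshold in all 3, 9 loci remained shared by Gm14410 and Gm4631 and 12 by Gm14410 and Gm14399, and the loci of 1 ES protein only fell to 5 of Gm4631 and 9 of Gm14399. The deposited false discovery rates were 22.6% to 100% in Gm4631 and 25.7% to 100% in Gm14399, against 0% to 53.9% in Gm14410, of which 21 peaks were at or below 5%. The peaks of Gm4631 had a median of 12 tags and those of Gm14399 11, against 50 for Gm14410, which limits how far a single ES peak can be read.

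The 8 loci called in all 3 proteins were all in arrays in which every copy was exact. One of them lay at chr17:29074811-29075058 in an intron of Pxt1, a gene named for its testis-specific peroxisomal protein, with 80 tags and a fold of 34.3 in Gm14410, 20 tags and 16.8 in Gm4631, and 44 tags and 36.4 in Gm14399. It was the highest fold of all Gm14399 peaks. Another, at chr4:88377896-88378194, was intergenic and 9627 bp from the nearest annotated start, that of Klhl9, an adaptor of a ubiquitin ligase, and it had 90, 16 and 40 tags and folds of 25.3, 12.4 and 26.9 in Gm14410, Gm4631 and Gm14399. A locus in an intron of Mphosph9, an M-phase phosphoprotein gene, at chr5:124721910-124722218, had 51, 27 and 23 tags and folds of 16.7, 20.9 and 22.4. The highest score of all Gm4631 peaks, 176.2, was at this locus. Introns of 1700113H08Rik and Ispd, which acts in the glycosylation of dystroglycan, held 2 more. The remaining 3 were intergenic with no transcript start within 10 kb, 2 of them on the X chromosome and 1 on chromosome 6. The chromosome 6 array had 4 exact copies, and the summits of the 3 proteins lay at 3 positions along it, 68610474, 68610585 and 68610731.

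Among the other loci shared between the cell lines, the highest by the sum of ranks was at chr4:8241055-8241290, with 68 tags and a fold of 32.0 in Gm14410 and 26 tags and 21.5 in Gm14399. The locus printed above at chr16:9069734-9069939 followed, with 45 tags and a fold of 20.8 in Gm14410 and 29 tags and 21.6 in Gm4631, whose summits were at 9069840 and 9069834. An array in an intron of Rev3l, the catalytic subunit of a DNA polymerase that copies past lesions, had 88 tags and a fold of 41.1 in Gm14410 and 26 tags and 12.4 in Gm4631, and no other KRAB-ZFP of the series was called there. A single exact copy 2951 bp from the start of Ept1, an enzyme of phospholipid synthesis, had 72 tags and a fold of 31.5 in Gm14410 and 19 tags and 13 in Gm4631. Of the 54 shared loci, 35 were intergenic (64.8%), 18 lay in introns, 1 in a non-coding exon and none in a coding exon. The median distance to a transcript start was 28470 bp, and 2 loci had a start within 1 kb, those of 4930425F17Rik (235 bp) and BC004004 (119 bp). No peak of the 3 proteins lay between the first and the last of their own genes on chromosome 2.

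The 5 highest folds of Gm4631 only and 4 of the 5 highest of Gm14399 only were also in arrays. For Gm4631 only they ranged from 15.9 to 20.6 with 11 to 18 tags, and 2 of the 5 arrays, both on the X chromosome, held a T12C copy. The highest of Gm14399 only was the locus printed above at chr2:150023295-150023494, with 40 tags, a fold of 22.9 and a score of 257.1, 7266 bp from the start of Gm14139. Next came an array of 2 exact copies in an intron of Gbe1, the glycogen branching enzyme, with 14 tags and a fold of 21.9. The locus at chr5:41862681-41862880 was the exception, in another repeat with a median of 5431 copies, with 13 tags and a fold of 17.7. Both ES proteins also had a peak at chr2:98502721-98502920 (1201 tags in Gm4631) and at chr9:35112943-35113142 (653 tags), with 1176 and 651 tags in Gm14399. Their folds were 1.89 to 2.44, the lowest of either list. The chr2 locus was also called in Gm14401, Gm14419 and Gm8898, and the chr9 locus in Gm14401 and Gm8898. The labels of these further ES proteins name the same input.

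Most of the strongest peaks of Gm14410 were of a second kind, away from the arrays. A short word held by 16 of its 28 low copy windows was rare in those of the ES proteins. Of its 10 highest folds, 9 were in low copy sequence, and the median fold was 32.4 over the 28 low copy peaks (quartiles 21.5 and 45.8) against 18.2 over the 115 peaks near the word (15.5 and 20.3), with 1 peak counted in both. The 8-base word most in excess in these windows on odd-numbered chromosomes was CTTCTGCC, searched on both strands. It was present in 11 of the 14 low copy windows there, and in 5 of the 14 on the other chromosomes (35.7%, 16.3 to 61.2). In the low copy windows of the other KRAB-ZFPs its share was 1.56% (1.44 to 1.70), in those of Gm4631 2.04% (3 of 147) and in those of Gm14399 0.585% (1 of 171). None of the 114 multi-copy windows of Gm14410 held it, which allows a share of up to 2.63% when the limit is taken as 3 windows of the total (the Wilson limit is 3.26%). The middle of the word lay a median of 8.50 bp from the summit (0 to 32.0, n = 16). The word was picked from windows around these same summits, and 11 of the 16 are on the chromosomes used to pick it, which favours small distances. The median fold of the low copy peaks was 35.2 with the word (quartiles 24.3 and 55.1, n = 16). Without it the median was 32.4 (16.8 and 37.2, n = 12), so the quartile ranges overlapped. The best words of Gm4631 (AGGAGTCA) and Gm14399 (CAGAGGAG), found in the same way in 6 of 79 and 7 of 71 windows, were present in 1 of 68 and 0 of 100 windows on the other chromosomes, near their shares of 1.00% and 2.12% in the other KRAB-ZFPs.

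The 4 strongest low copy peaks that held this word, with 1 taken for the chromosome 15 group described next, are shown here, with the 8-base word in capitals, from mm9 chr15:74972508-74972567 (minus strand), chr17:29435044-29435103 (plus), chr1:134438169-134438228 (minus) and chr17:69542478-69542537 (minus). Each is named by the gene with the nearest transcript start, with Cntn2 and Epb4.1l3 picked once their values were known.
Ly6g: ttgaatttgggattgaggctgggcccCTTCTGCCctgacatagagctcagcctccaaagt
BC004004: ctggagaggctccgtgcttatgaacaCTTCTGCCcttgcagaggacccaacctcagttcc
Cntn2: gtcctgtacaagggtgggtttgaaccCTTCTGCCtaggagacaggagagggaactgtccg
Epb4.1l3: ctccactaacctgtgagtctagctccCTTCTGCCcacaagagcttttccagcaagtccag

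The Ly6g peak was the strongest of Gm14410, with 178 tags, a fold of 94.8, a score of 1100 and a deposited false discovery rate of 0%. It was 1 of 5 peaks with the word between chr15:74892598 and 75274328, a region of Ly6 genes, which code for surface antigens of blood cells. The next starts of the other 4 were those of BC025446, Ly6c1, Ly6c2 and 9030619P08Rik, and their folds were 92.7, 82.3, 63.8 and 50.1 with 110 to 170 tags. Apart from Ly6c2, these genes start beyond the 10 kb used elsewhere and were named with their values known. The windows near Ly6g, BC025446, Ly6c1 and Ly6c2 had a median of 2 to 4 genomic copies and all 5 lie in 1 region, so they are not independent cases. Without chromosome 15 the word was in 6 of the 9 remaining low copy windows on odd-numbered chromosomes. The 5 peaks were called in no other KRAB-ZFP, ES proteins included. The BC004004 peak, in an intron, was the exception that was shared: it had 91 tags and a fold of 52.2 in Gm14410 and 10 tags, a fold of 8.64 and a score of 55.0, close to the threshold, in Gm4631. The other shared low copy locus was in an intron of Pcsk6, a proprotein convertase, with 108 tags and a fold of 12.5 in Gm14410 and 21 tags and 15.5 in Gm4631, and it was also called in Gm13152; it was named after its values were seen.

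Transcript starts were near these low copy peaks of Gm14410 more often than near its arrays: 9 of 28 low copy windows (32.1%, 17.9 to 50.7) and 1 of 114 multi-copy windows had a start within 1 kb. The other KRAB-ZFPs had the same contrast, with 16.4% of the low copy windows (16.0 to 16.8) and 1.32% of the multi-copy windows, and the first lay below the interval of Gm14410, and for Gm4631 and Gm14399 it was 8.84% (5.24 to 14.5) and 7.02% (4.06 to 11.9). Besides BC004004, these starts were of Ccdc88a, Il17rd, Il15, Ntf3, Dnajc15, Amz2, Ppp2r5d and Mtmr14, listed after their values were seen. Il15 codes for a cytokine and Ntf3 for a neurotrophin.

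Both words of Gm14410 hold the letters CTTCNGC, at positions 11 to 17 of the 24-base word and at the start of the 8-base word. This pattern was chosen after both words were seen. It was present on either strand in 20 of the 28 low copy windows of Gm14410, of which the 16 with the 8-base word hold it by construction. It was in 12.9% of those of Gm4631 (8.43 to 19.3), in 8.19% of those of Gm14399 (4.94 to 13.3) and in 10.4% of those of the other KRAB-ZFPs (10.1 to 10.8). The longer GAACNCTTCNGC, positions 6 to 17 of the 24-base word with 2 free positions, was in 7 of 28 low copy windows of Gm14410 (25%, 12.7 to 43.4), 3 of 147 of Gm4631 (2.04%, 0.696 to 5.83) and 0 of 171 of Gm14399, which allows up to 1.75% by the same limit of 3 windows (Wilson 2.20%). In the other KRAB-ZFPs it was in 18 of 34355 (0.0524%, 0.0331 to 0.0828). The longer pattern was not planned, and its free positions fit letters seen in the Gm14410 windows printed above. No chromosomes were held out for it, so its share in Gm14410 is favoured. A15T turns positions 11 to 17 of the 24-base word into the first 7 letters of the 8-base word. The arrays with this variant were also called in Gm14419 where any overlap of a window with the array is counted. A match of letters is a description of these windows and no proof of a binding site.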

How the data were processed

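The authors mapped ChIP-seq reads to mm9, with Bowtie2 for Gm14410 and Bowtie for Gm4631 and Gm14399, called peaks per sample with MACS (version 1.4.2 in the submitters' processing notes) and deposited 200 bp windows around summits. Per the labels, Gm14410 was held to stricter thresholds. For each peak the authors deposited the tag count, a score (10 times the negative log10 of p), a fold ratio over the local background and a false discovery rate in percent; positions and widths are in bp.

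The 3 proteins and all lists here were chosen with earlier results of these data known. Windows were joined at an overlap of 25%. Copy number is the median count, over a window, of exact copies of its 24-base words on both strands of the NCBIM37 (mm9) genome; 10 or more copies make a window multi-copy. Copies of the 24-base word were sought with up to 3 mismatches and joined within 250 bp, and a summit within 150 bp of the middle of a copy was counted as near it. The grouping of arrays by their variants was chosen after the data were seen. The 8-base words were those with the largest excess over the low copy windows of the other KRAB-ZFPs, found on odd-numbered chromosomes and counted on the others. Gene positions are from gencode vM1. Shares have 95% Wilson intervals (Python 3.11.15, scipy 1.17.1). With 1 sample per protein no test was run. Searches were tested on simulated sequence with planted words.

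The loci named are those called in all 3 proteins, the 10 others shared between the cell lines with the smallest sum of the fold ranks in Gm14410 and its partner (not all are written out), and the 5 highest folds of each protein alone; genes are those that hold a named locus or start within 10 kb, or within 1 kb of a shared locus, and other KRAB-ZFPs are those sharing the most peaks. Exceptions are stated. The planned comparison of the zinc fingers of the proteins was not analysed here. Of 68 names in the table, 1 (244 peaks) matched no label and was not used.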

Additional observations from a re-analysis of the deposited data

How the results depend on the processing

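No paired analysis was possible because each protein had 1 sample. Of 74 values recomputed under another setting, 52 stayed within 1.5 times the count or inside the 95% interval or quartiles of the reported value, and 22 did not. An overlap of 50% or of 1 bp, and peaks as called, moved no count of shared loci by more than 1.5 times.

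A p threshold of 1e-10 in all 3 proteins took the loci that Gm14410 shared from 43 to 9 with Gm4631 and from 19 to 12 with Gm14399, and the loci of 1 protein only to 5 for Gm4631 and 9 for Gm14399; with an enrichment over 10 as well these were 9, 12, 5 and 8. Fewer ES peaks enter under this setting. In low copy loci only, Gm14410 shared 2 loci with Gm4631 and 0 with Gm14399. A false discovery rate up to 5% left 0 peaks of the ES proteins, so no value could be given.

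The share of multi-copy loci at 2 or more copies and at 100 or more copies was 79.5% and 59.1% for Gm14410 only (70.5% at 10), 59.9% and 44.0% for Gm4631 only (53.0%), and 45.1% and 32.1% for Gm14399 only (39.0%), in the same order of proteins. In windows of 100 bp the 24-base word was in 72.5% of Gm14410, 36.7% of Gm4631 and 15.2% of Gm14399 windows, against 80.3%, 45.0% and 23.6% in 200 bp; with 1 mismatch allowed it was in 30.4% of the Gm14399 windows. With 1 mismatch allowed the 8-base word was in 92.9% of the low copy Gm14410 windows, but also in 27.4% of those of the other KRAB-ZFPs. Within 50 bp of the 24-base word lay 42.6% of the Gm4631 summits. The last setting, another chaining of copies, copies with up to 1 mismatch, and leaving out loci called in 5 or more KRAB-ZFPs or windows of fold under 3 were chosen after seeing the data; apart from the Gm4631 value they moved no value past these limits. Depth is unknown, and the low tag counts of the ES peaks limit their precision.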
